A study of Mus musculus with 24 samples.

Results

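The genes described here encode the folding machinery of the endoplasmic reticulum and the sensors of the unfolded protein response, followed across mouse CD8+ T cells exposed to 7 bile acids. They are 35 genes of the 24537 in the deposited table, chosen by symbol from a list of chaperones, isomerases, degradation factors, stress sensors and translocation genes. Each of the 35 had 1 entry in the table, placed on the mm10 build by its RefSeq transcript, and all 35 were among the 13044 genes with enough reads to be tested. The cells had been activated in vitro and were then exposed to an acid for 24 h by the series' design text, or overnight by the treatment protocol. The unconjugated acids were LCA (lithocholic acid), its relatives IsoLCA (isolithocholic), IsoAlloLCA (isoallolithocholic) and DehydroLCA (dehydrolithocholic), and UDCA (ursodeoxycholic acid), each at 50 µM. The taurine conjugates taurochenodeoxycholic acid (TCDCA) and taurocholic acid (TCA) were given at 100 µM, and Control cells were labelled as control with no acid named. Each of the 8 groups held 3 libraries. The labels name no mouse strain, age, vehicle or activating stimulus. Nor do they tie replicates to different mice or dishes, so the p-values below reflect the variation among these libraries alone, part or all of which could be technical.

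Proteins destined for secretion or the cell surface enter the endoplasmic reticulum through the Sec61 channel, fold with the help of chaperones and isomerases, and are sent back to the cytosol for destruction when folding fails. When unfolded proteins accumulate, the membrane sensors IRE1 (gene Ern1), PERK (gene Eif2ak3) and ATF6 are released from the chaperone BiP (gene Hspa5). IRE1 splices the Xbp1 mRNA into a form that encodes an active transcription factor, ATF6 is cleaved into another, and PERK slows translation by phosphorylating eIF2α. Activated CD8+ T cells secrete cytokines and granule proteins, and the XBP1 and PERK arms have been studied in T cells.

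The DNA element most closely tied to this response is the endoplasmic reticulum stress element, in which the letters CCAAT and CCACG are separated by any 9 bases. Both strands of the RefSeq promoter windows of build GRCm38.p6, from 250 bases before to 50 bases after a gene's start, were searched for it. A window was held for 28 of the 35 genes, and none for Sec11c, Sec61a1, Manf, Derl1, Hspa13, Hyou1 and Atf6. The element stood in 8 of these 28 genes (28.6%), against 37 of all 27025 genes with a window (0.137%). The 9 copies in these 8 genes are shown because 7 of these genes rose with UDCA, as did 9.18% of all tested genes. Capitals mark CCAAT and CCACG, each copy is read 5′ to 3′ on the strand that holds it, and 5 bases on either side are given.
Hspa5, chr2:34772025-34772043, strand of the gene: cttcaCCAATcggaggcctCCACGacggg
Hsp90b1, chr10:86705638-86705656, strand of the gene: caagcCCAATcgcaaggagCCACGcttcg
Hsp90b1, chr10:86705533-86705551, strand opposite to the gene: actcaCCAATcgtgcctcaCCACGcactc
Calr, chr8:84847075-84847093, strand opposite to the gene: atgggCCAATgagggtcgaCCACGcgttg
Canx, chr11:50325800-50325818, strand of the gene: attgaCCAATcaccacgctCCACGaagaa
Pdia6, chr12:17266491-17266509, strand of the gene: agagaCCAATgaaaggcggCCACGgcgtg
Dnajc3, chr14:118937827-118937845, strand of the gene: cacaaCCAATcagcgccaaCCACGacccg
Creld2, chr15:88819520-88819538, strand opposite to the gene: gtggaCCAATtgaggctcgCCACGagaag
Syvn1, chr19:6046532-6046550, strand of the gene: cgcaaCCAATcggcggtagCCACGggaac

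The 250 bases before the start of Hspa5 (chr2:34771840-34772089, plus strand, GRCm38.p6, RefSeq) show where the copy lies in the promoter of BiP, the chaperone that also holds the sensors inactive. The copy spans positions -65 to -47 from the start, with capitals as above.
Hspa5 promoter: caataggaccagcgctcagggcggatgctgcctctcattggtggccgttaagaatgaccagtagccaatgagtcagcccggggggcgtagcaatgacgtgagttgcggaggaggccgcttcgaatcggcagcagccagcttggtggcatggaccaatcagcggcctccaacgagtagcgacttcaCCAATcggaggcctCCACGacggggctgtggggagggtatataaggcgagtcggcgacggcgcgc
The letters CCACG alone, which every copy of the element holds, were in 24 of the 28 genes (85.7%) and in 35.5% of all genes with a window. The element TGACGTGG, whose opposite strand also reads CCACG, was found in Txndc5 alone among the 28 genes and in 0.714% of all genes. The ATF4 type element TGATGCAA was found in Herpud1 alone and in 1.03% of all genes. A match describes letters in a window and is not evidence that a factor bound there.

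The libraries held 25998051 to 41024340.5 counts in genes (median 32852325). Levels are given as CPM, counts scaled to a common library size after TMM normalisation. The CD8+ label matched its markers, with Cd3e, Cd3g, Cd8a and Cd8b1 each at 279 CPM or more in all 24 libraries and Cd4 between 0.281 and 1.16 CPM. Among markers of B and plasma cells, which are rich in endoplasmic reticulum, Ms4a1, Mzb1 and Tnfrsf17 did not pass the filter on low counts, while Cd79a, Cd79b, Jchain and Sdc1 did. The summed level of the 4 that passed was 10.4 to 12.9 CPM with UDCA and 8.49 to 8.82 CPM with LCA, against 10.1 to 11.5 CPM in Control cells. Sdc1, a plasma cell marker, averaged 5.97 ± 0.711 CPM with UDCA and 3.81 ± 0.187 CPM with LCA, against 4.69 ± 0.576 CPM in Control cells (SD, n = 3 each), called as a rise and a fall by edgeR. DESeq2 called the rise of Sdc1 with UDCA but not its fall with LCA (adjusted p = 0.0401 and 0.0573, DESeq2). Jchain, also a plasma cell marker, went the other way. It averaged 0.336 ± 0.0367 CPM with UDCA and 0.697 ± 0.118 CPM with LCA, against 0.435 ± 0.0552 CPM in Control cells (SD, n = 3 each). Jchain was called as a rise with LCA by edgeR but not by DESeq2, and was not called with UDCA. Cd79b fell with LCA and was not called with UDCA, and Cd79a was called with neither acid. The part of these shifts in the UDCA and LCA results was not tested. IsoAlloLCA libraries stood apart in several measures. The summed level of the 5 myeloid markers was 5.20 to 7.29 CPM with IsoAlloLCA and 2.54 to 3.22 CPM in Control cells, and that of the 4 dendritic markers averaged 3.42 ± 0.661 CPM and 1.49 ± 0.282 CPM (SD, n = 3 each). The myeloid sum was mostly Cd68, while Lyz2, Csf1r and Adgre1 were at or under 0.335 CPM in every library, and Siglech was at 0 in all of them. Exons took 78.3% ± 2.78 of the reads in IsoAlloLCA libraries and 82.6% ± 1.37 in Control libraries (SD, n = 3 each). The part of these shifts in the IsoAlloLCA results was not tested. In bulk RNA, fewer cells of a type and less RNA per cell cannot be told apart.

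In Control cells, on a scale of CPM per kilobase of exon, the calcium-binding lectin chaperone Calr was the highest of the 35 genes at 531 ± 19.8. Hsp90b1, which encodes the reticulum form of HSP90, followed at 438 ± 12.3, and the oxidoreductase Pdia3 at 349 ± 8.09 (SD, n = 3 each). Ppib at 294 ± 8.35 and Hspa5 at 284 ± 9.58 came next and did not differ beyond their spread. The sensors were low on this scale, with Eif2ak3 at 14.03 ± 1.25, Atf6 at 9.98 ± 0.171 and Ern1, the lowest of the 35, at 1.73 ± 0.122. As a sum, the 35 genes made up 1.03% ± 0.0147 of counts with UDCA, 0.997% ± 0.0426 with IsoAlloLCA and 0.970% ± 0.0250 with IsoLCA, against 0.899% ± 0.0115 in Control libraries (SD, n = 3 each). The shares with the other 4 acids lay between 0.882% and 0.929% on average.

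**Figure D1:**
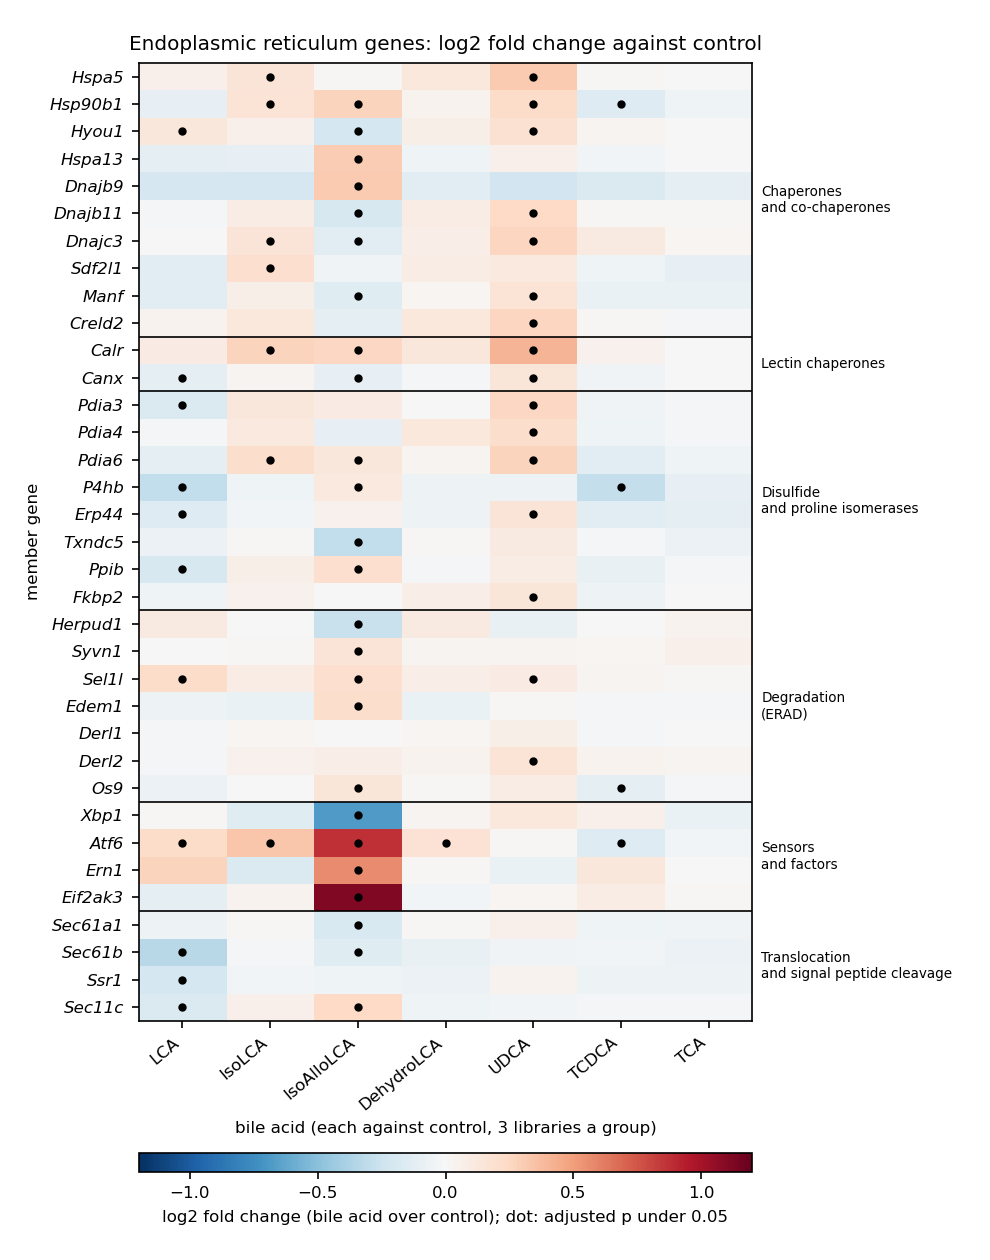
Log2 fold change of each of the 35 genes (down the page, grouped by role) for each acid over Control (across), with red for higher and blue for lower in cells given the acid and a dot for an adjusted p under 0.05. UDCA has 16 dots, all on red; IsoAlloLCA has 15 on red and 10 on blue; TCA has none.

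A gene was called changed when its adjusted p in edgeR's quasi-likelihood test (Benjamini-Hochberg over the 13044 genes) was under 0.05. All 7 comparisons share the same 3 Control libraries. With UDCA, 16 of the 35 genes rose and 0 fell, where 9.18% of all tested genes rose and 10.7% fell, and their median log2 fold change was 0.11 beside 0.0091 over all tested genes. By DESeq2, 15 of the 35 rose and 0 fell with UDCA, and 1 was lower at an unadjusted p under 0.05 in edgeR. With IsoAlloLCA, 15 rose and 10 fell, where 30.6% and 27.8% of all tested genes did, with a median log2 fold change of 0.053 beside 0.026. With LCA, 3 rose and 8 fell, beside 17.7% and 18.8% of all tested genes, with a median of -0.062 beside 0.014. With IsoLCA, 7 rose and 0 fell, beside 3.73% and 6.12% of all tested genes, with a median of 0.049 beside 0.0054; DESeq2 called 7 higher and 1 lower, and 3 were lower at an unadjusted p under 0.05. With DehydroLCA, 1 rose and 0 fell, beside 2.41% and 3.41% of all tested genes, while DESeq2 called 1 in each direction and edgeR put 7 higher and 1 lower at an unadjusted p under 0.05. With TCDCA, 0 rose and 4 fell, beside 5.08% and 8.04% of all tested genes; DESeq2 gave the same counts and 1 was higher at an unadjusted p under 0.05. With TCA, 0 of the 35 genes were called by edgeR or by DESeq2, beside 0.0843% of all tested genes that rose and 0.353% that fell, and 0 were higher and 2 lower at an unadjusted p under 0.05. The count for IsoLCA was 3 without IsoLCA replicate 1 or Control replicate 1 and 4 without Control replicate 2. The count for TCDCA was 2 without TCDCA replicate 1, Control replicate 2 or Control replicate 3, and that for DehydroLCA was 3 without Control replicate 3. Across the 7 acids, 34 of the 35 genes were called at least once, 15 of them only as higher, 6 only as lower and 13 in both directions. The same count over all tested genes was not made, and with IsoAlloLCA alone 30.6% of them rose and 27.8% fell.

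The sensor genes moved most with IsoAlloLCA, where 3 of the 4 sensors and factors rose and Xbp1 fell, beside 30.6% and 27.8% of all tested genes. Eif2ak3 (chr6:70844515-70905241, plus strand), which encodes the eIF2α kinase PERK, had 130.1, 143 and 136 CPM with IsoAlloLCA, against 68.8, 62.6 and 57.6 CPM in Control cells. It rose 2.17-fold (log2 fold change 1.11 ± 0.056, SE; adjusted p = 2.11e-14, edgeR quasi-likelihood test). In the other 6 groups given an acid, Eif2ak3 ran from 56.7 CPM in an LCA library to 69.5 CPM in an IsoLCA library, and none of these groups differed from Control by the test. The 3 IsoAlloLCA libraries stood above the 21 others, with no overlap. Eif2ak3 shares 485 exon bases with Gm43292 on the opposite strand, and reads of the pair cannot be told apart where no strand was used in counting.

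Atf6 (chr1:170704457-170867771, minus strand) encodes the sensor that is itself cut into a transcription factor, and it was called in 5 of the 7 comparisons with Control. It stood at 141, 128 and 139.9 CPM with IsoAlloLCA, 93.0, 91.9 and 95.1 CPM with IsoLCA and 89.9, 84.9 and 85.6 CPM with LCA, against 73.0, 74.4 and 75.6 CPM in Control cells. With DehydroLCA it stood at 82.9, 83.3 and 84.6 CPM, with UDCA at 75.6, 75.7 and 73.3 CPM, with TCA at 69.6, 74.3 and 73.7 CPM and with TCDCA at 66.3, 66.7 and 66.6 CPM. The groups given LCA, IsoLCA, IsoAlloLCA or DehydroLCA lay wholly above Control, TCDCA lay wholly below it, and UDCA and TCA overlapped it. The log2 fold changes were 0.87 ± 0.037 with IsoAlloLCA (adjusted p = 1.09e-15), 0.33 ± 0.037 with IsoLCA (6.66e-07), 0.22 ± 0.038 with LCA (4.51e-05) and 0.17 ± 0.038 with DehydroLCA (0.00635, edgeR quasi-likelihood test, SE). With TCDCA Atf6 fell by 0.16 on the log2 scale (SE 0.038, adjusted p = 0.00637, edgeR). Atf6 was the 1 gene of the 35 called with DehydroLCA.

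Ern1 (chr11:106397620-106487796, minus strand) encodes the kinase and nuclease IRE1, and had the lowest level per kilobase of the 35 genes. Its levels were 8.16, 11.5 and 10.6 CPM with IsoAlloLCA, 7.37, 8.63 and 8.74 CPM with LCA and 5.89, 6.94 and 5.47 CPM with IsoLCA, against 7.28, 6.91 and 6.33 CPM in Control cells. Only with IsoAlloLCA was it called, by 0.56 ± 0.12 on the log2 scale (SE; adjusted p = 0.000223, edgeR quasi-likelihood test), and there its libraries did not overlap with Control. With LCA all 3 libraries also lay above all 3 Control libraries, but the difference of 0.27 ± 0.12 was not called (adjusted p = 0.0764, edgeR). The levels were 7.06, 6.597 and 7.04 CPM with DehydroLCA, 6.27, 6.595 and 6.54 CPM with UDCA, 7.42, 6.40 and 8.76 CPM with TCDCA and 6.23, 7.50 and 6.77 CPM with TCA.

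Xbp1 (chr11:5520641-5525993, plus strand) encodes the transcription factor whose mRNA IRE1 splices, and its gene-level counts do not separate the spliced from the unspliced form. It had 177, 147 and 170.3 CPM with IsoAlloLCA, against 249.9, 262 and 278 CPM in Control cells, and the IsoAlloLCA libraries were the lowest 3 of the 24. It fell by 0.68 on the log2 scale (SE 0.059, adjusted p = 4.90e-10, edgeR quasi-likelihood test). The other groups were at 280.1, 255 and 262 CPM with LCA, 249.8, 216 and 249.7 CPM with IsoLCA, 267, 273 and 268 CPM with DehydroLCA and 278, 289 and 293 CPM with UDCA, and none of these was called. With TCDCA the values were 269, 275 and 279 CPM and with TCA 235, 250.3 and 261 CPM, both overlapping Control.

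**Figure D2:**
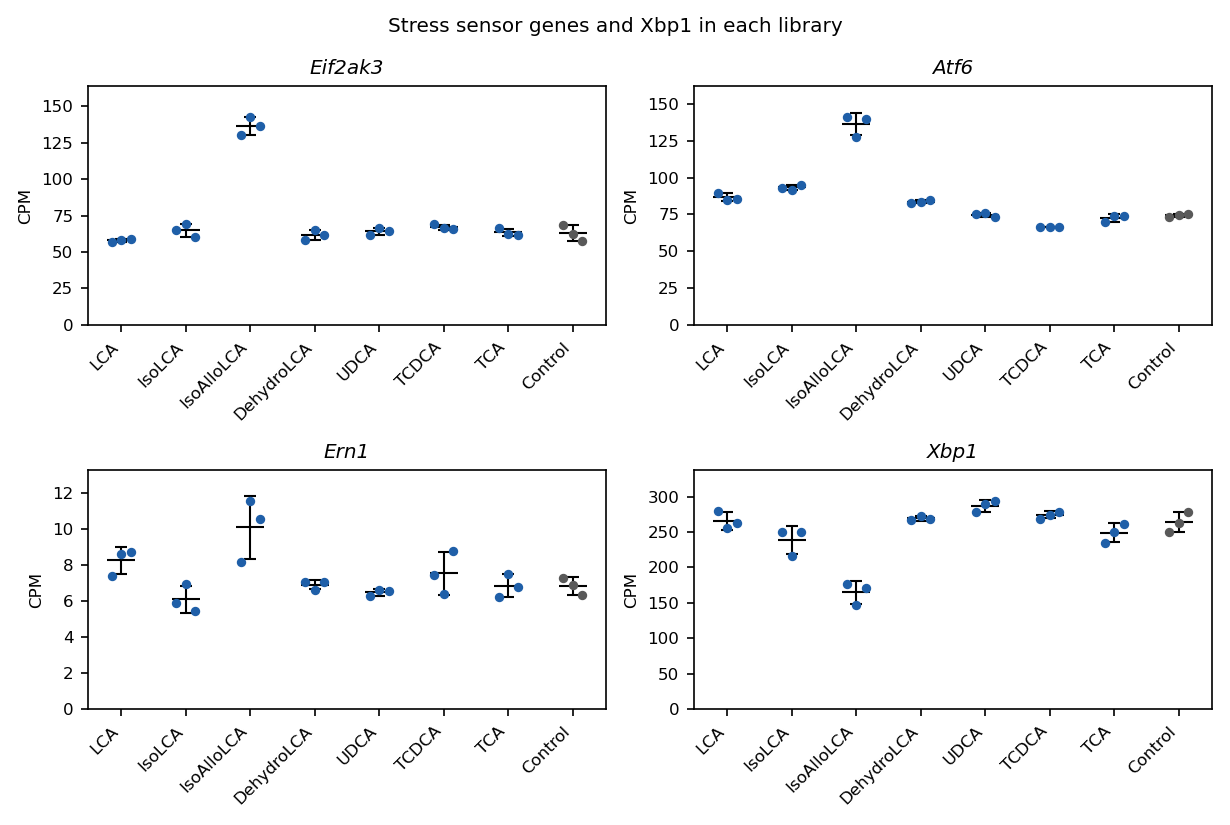
CPM of Eif2ak3, Atf6, Ern1 and Xbp1 (vertical axes, linear, from 0) in each of the 24 libraries, by group (horizontal axis, Control at the right in grey); points are libraries, the long line is the mean of 3 and the bars are 1 SD. The IsoAlloLCA libraries stand above all others for Eif2ak3 and Atf6 and below all others for Xbp1.

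Of the 10 chaperones and co-chaperones, 7 rose and 0 fell with UDCA, where 9.18% of all tested genes rose; the other 3 were not called, and Dnajb9 was lower at an unadjusted p under 0.05. With IsoAlloLCA 3 rose and 4 fell, beside 30.6% and 27.8% of all tested genes. With IsoLCA 4 of the 10 rose, where 3.73% of all tested genes did, and with LCA 1 did, where 17.7% did. Hspa5 (chr2:34772090-34776529, plus strand) encodes BiP, the HSP70 of the endoplasmic reticulum, whose promoter is printed above. It had 884, 905 and 887 CPM with UDCA and 839.6, 746 and 807 CPM with IsoLCA, against 695, 712 and 743 CPM in Control cells. Both groups lay wholly above Control, by 0.32 ± 0.045 with UDCA (adjusted p = 1.68e-05) and 0.15 ± 0.045 with IsoLCA (adjusted p = 0.029; log2 fold change, SE, edgeR quasi-likelihood test). The IsoLCA call was lost without IsoLCA replicate 1 or 3 or Control replicate 1 or 2, and when only the 2 groups were fitted. The levels were 782, 723 and 736 CPM with LCA, 777, 678 and 717 CPM with IsoAlloLCA, 794, 789 and 762 CPM with DehydroLCA, 703, 738 and 724 CPM with TCDCA and 693, 729 and 726 CPM with TCA. None of these 5 was called, although DehydroLCA also lay wholly above Control. BiP was thus not among the genes called with IsoAlloLCA (log2 fold change 0.014, 95% interval -0.079 to 0.11).

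Hsp90b1 (chr10:86690841-86705444, minus strand) encodes GRP94, a chaperone with a small set of clients that includes integrins and Toll-like receptors. Its levels were 1542, 1382 and 1416 CPM with IsoAlloLCA, 1411, 1396 and 1395 CPM with UDCA and 1397, 1304 and 1323 CPM with IsoLCA, against 1164, 1201 and 1232 CPM in Control cells. These 3 groups stood wholly above Control, with log2 fold changes of 0.27 ± 0.042 with IsoAlloLCA (adjusted p = 5.41e-06), 0.22 ± 0.042 with UDCA (0.000428) and 0.16 ± 0.042 with IsoLCA (0.0123; SE, edgeR quasi-likelihood test). With TCDCA it stood lower, at 1043, 1096 and 1091 CPM, and fell by 0.16 on the log2 scale (SE 0.042, adjusted p = 0.0151, edgeR). The call with IsoLCA was lost without IsoLCA replicate 1 or Control replicate 1 and when only the 2 groups were fitted. That with TCDCA was lost without TCDCA replicate 1 or Control replicate 2 or 3. The remaining groups had 1197, 1084 and 1082 CPM with LCA, 1249, 1259 and 1206 CPM with DehydroLCA and 1184, 1152 and 1143 CPM with TCA, and were not called.

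Among the co-chaperones that hand clients to BiP, Dnajb9 was called with IsoAlloLCA alone, and Dnajb11 and Dnajc3 went opposite ways with UDCA and IsoAlloLCA. Dnajb9 (chr12:44205897-44210068, minus strand) encodes ERdj4, a co-chaperone linked to the repression of IRE1. It had 10.2, 11.4 and 10.4 CPM with IsoAlloLCA, against 8.05, 9.33 and 8.34 CPM in Control cells, a rise of 0.32 ± 0.087 on the log2 scale with no overlap (SE; adjusted p = 0.00304, edgeR quasi-likelihood test). With the other acids its 18 libraries ran from 6.58 to 8.70 CPM and none of the 6 groups was called. The other levels of Dnajb9 by library were 7.42, 7.71 and 7.27 CPM with LCA, 8.18, 6.63 and 7.56 CPM with IsoLCA, 8.23, 7.05 and 6.58 CPM with UDCA, 7.81, 7.79 and 7.96 CPM with DehydroLCA, 7.48, 7.90 and 7.35 CPM with TCDCA and 8.70, 7.94 and 7.12 CPM with TCA. Dnajb11, a co-chaperone of BiP that binds unfolded proteins, had 202, 206 and 202 CPM with UDCA and 159.8, 135 and 158 CPM with IsoAlloLCA, against 168, 168 and 182 CPM in Control cells. UDCA stood wholly above Control (0.23 ± 0.047) and IsoAlloLCA wholly below it (-0.19 ± 0.047; log2 fold change, SE; adjusted p = 0.000813 and 0.00108, edgeR). Dnajc3, whose protein is also known to inhibit PERK, rose with UDCA (167 ± 6.49 CPM) and IsoLCA (156 ± 3.91 CPM) and fell with IsoAlloLCA (128 ± 9.23 CPM), against 140.0 ± 1.78 CPM in Control cells (SD, n = 3 each). The IsoLCA call of Dnajc3 was lost without IsoLCA replicate 1 or 2 or Control replicate 1 or 2. The IsoAlloLCA call was lost without IsoAlloLCA replicate 2 or 3 or Control replicate 3 and when only the 2 groups were fitted.

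Sdf2l1 (chr16:17130138-17132383, minus strand) encodes a partner of the BiP co-chaperones and was called with IsoLCA alone among the acids. It had 131, 119 and 127 CPM with IsoLCA, against 107, 106 and 115 CPM in Control cells, a rise of 0.20 ± 0.053 without overlap (log2, SE; adjusted p = 0.0119, edgeR quasi-likelihood test). The call was lost without IsoLCA replicate 1, Control replicate 1 or Control replicate 2. With UDCA it had 118, 124 and 113 CPM and with DehydroLCA 120.3, 112 and 115 CPM, both overlapping Control. The levels with LCA were 105, 94.98 and 97.6 CPM, with IsoAlloLCA 112, 95.3 and 109.6 CPM, with TCDCA 105, 107 and 104 CPM and with TCA 97.5, 103 and 104 CPM.

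Hyou1, a large relative of HSP70 that acts as an exchange factor for BiP, went both ways. It had 273, 259 and 261 CPM with LCA, 269.6, 268 and 279 CPM with UDCA and 215, 193 and 214 CPM with IsoAlloLCA, against 234, 234 and 252 CPM in Control cells. LCA and UDCA lay above Control and IsoAlloLCA below it, without overlap. The log2 fold changes were 0.14 ± 0.04 with LCA (adjusted p = 0.00884), 0.18 ± 0.041 with UDCA (0.00232) and -0.21 ± 0.041 with IsoAlloLCA (7.77e-05; SE, edgeR quasi-likelihood test). The LCA call was lost without Control replicate 1 (adjusted p = 0.0511). Hspa13, a microsomal HSP70-like ATPase, rose with IsoAlloLCA alone (41.3, 39.5 and 39.3 CPM, against 30.6, 32.8 and 33.6 CPM in Control cells). The secreted stress protein Manf averaged 171 ± 3.28 CPM with UDCA and 138 ± 13.7 CPM with IsoAlloLCA, against 152 ± 9.06 CPM in Control cells, called as a rise and a fall. Creld2, another secreted protein of the stress response, rose with UDCA alone (67.3 ± 0.791 CPM, against 56.2 ± 2.31 CPM in Control cells, SD, n = 3 each). Of these calls, that of Manf with UDCA was lost when any UDCA library, Control replicate 1 or Control replicate 2 was left out. That of Manf with IsoAlloLCA was lost without IsoAlloLCA replicate 2 or Control replicate 3 and when only the 2 groups were fitted.

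Calr and Canx encode the lectin chaperones that hold newly made glycoproteins, the MHC class I heavy chain among them. Calr (chr8:84842088-84846931, minus strand) had 1346, 1411 and 1317 CPM with UDCA, 1273, 1216 and 1217 CPM with IsoLCA and 1317, 1133 and 1208 CPM with IsoAlloLCA, against 1018, 992 and 1067 CPM in Control cells. All 3 groups lay wholly above Control. Calr was the largest rise of the 35 genes with UDCA, at 0.40 ± 0.044 on the log2 scale (adjusted p = 3.45e-07), and rose by 0.27 ± 0.044 with IsoLCA (0.000128) and 0.25 ± 0.044 with IsoAlloLCA (2.91e-05; SE, edgeR quasi-likelihood test). The levels with LCA were 1144, 1084 and 1063 CPM, with DehydroLCA 1147, 1138 and 1103 CPM, with TCDCA 1054, 1092 and 1049 CPM and with TCA 1048, 1004 and 1036 CPM. None of them was called, although DehydroLCA also lay wholly above Control. Canx had 879.5, 876 and 887 CPM with UDCA and 774, 707 and 725 CPM with LCA, against 792, 792 and 805 CPM in Control cells. Canx with UDCA stood above Control by 0.14 ± 0.039 (adjusted p = 0.0102) and with LCA below it, by -0.12 ± 0.039 (0.0234; log2, SE, edgeR), both without overlap. With IsoAlloLCA Canx had 789, 691 and 758 CPM and a log2 fold change of -0.095 ± 0.039 (adjusted p = 0.0413, edgeR). That call was lost without IsoAlloLCA replicate 2 or Control replicate 2 or 3. It was also lost when only the 2 groups were fitted and with adjustment over genes and comparisons. The LCA call was lost without LCA replicate 2 or 3 or Control replicate 3.

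Of the 8 disulfide and proline isomerases, 5 rose with UDCA and 4 fell with LCA, where 9.18% of all tested genes rose with UDCA and 18.8% fell with LCA. Pdia3 (chr2:121413902-121438686, plus strand), which works with the lectin chaperones on glycoproteins and sits in the MHC class I loading complex, had 1066, 1133 and 1058 CPM with UDCA and 865, 772 and 793 CPM with LCA, against 902, 905 and 940.3 CPM in Control cells. UDCA lay above and LCA below Control without overlap, by 0.25 ± 0.053 (adjusted p = 0.00172) and -0.18 ± 0.053 (0.0106; log2, SE, edgeR quasi-likelihood test). The LCA call was lost without LCA replicate 2. Pdia6, a disulfide isomerase that also binds IRE1, had 335, 352 and 321 CPM with UDCA and 338, 309.7 and 321 CPM with IsoLCA, against 268, 274 and 295 CPM in Control cells. Both groups lay wholly above Control, by 0.27 ± 0.05 with UDCA (adjusted p = 0.000408) and 0.21 ± 0.05 with IsoLCA (0.00586; log2, SE, edgeR). With IsoAlloLCA it had 324, 277 and 319 CPM, which overlapped Control. Its call there was lost with DESeq2, with another scaling and when only the 2 groups were fitted. It was also lost without IsoAlloLCA replicate 1 or 3 or Control replicate 1 or 2.

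P4hb (chr11:120560304-120572936, minus strand) encodes protein disulfide isomerase itself, and it was lower with both LCA and TCDCA. It had 486, 454 and 464 CPM with LCA and 460.3, 478 and 469.8 CPM with TCDCA, against 539, 597 and 582 CPM in Control cells. Both groups lay wholly below Control, and it fell by 0.29 on the log2 scale in each (SE 0.045 for each; adjusted p = 1.69e-05 with LCA and 8.91e-05 with TCDCA, edgeR quasi-likelihood test). With IsoAlloLCA it had 658, 584 and 623 CPM, a call of 0.12 ± 0.045 that overlapped Control. That call was lost with DESeq2, another scaling, no filter, a fit of only the 2 groups and adjustment over genes and comparisons. It was also lost without IsoAlloLCA replicate 1 or 3 or Control replicate 1. Txndc5, a thioredoxin-domain isomerase, had 97.9, 88.4 and 99.0 CPM with IsoAlloLCA, against 114, 115 and 122 CPM in Control cells, and fell by 0.30 on the log2 scale without overlap (SE 0.043, adjusted p = 1.70e-06, edgeR). Erp44, which retrieves unassembled secretory proteins from the Golgi, averaged 112 ± 3.66 CPM with UDCA and 90.3 ± 4.97 CPM with LCA, against 100.4 ± 4.93 CPM in Control cells (SD, n = 3 each). It was called higher with UDCA and lower with LCA, and the UDCA call was lost without UDCA replicate 2 or 3 or Control replicate 1 or 2, the LCA call without LCA replicate 2 or 3 or Control replicate 2 or 3. Pdia4 averaged 219 ± 6.13 CPM and the proline isomerase Fkbp2 40.2 ± 2.15 CPM with UDCA, against 188 ± 10.7 and 36.3 ± 1.17 CPM in Control cells, and both rose with UDCA alone (SD, n = 3 each). The Fkbp2 call was lost without UDCA replicate 1 or 2 or Control replicate 1 or 2. It was also lost without a filter on low counts and when only the 2 groups were fitted.

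Ppib, which encodes cyclophilin B, averaged 321 ± 24.1 CPM with IsoAlloLCA and 245 ± 9.26 CPM with LCA, against 280.3 ± 7.96 CPM in Control cells (SD, n = 3 each), a rise and a fall. It shares 825 of its 953 exon bases with Snx22 on the opposite strand, whose level was 179.8 CPM with IsoAlloLCA and 134 CPM with LCA, against 157 CPM in Control cells, so the changes cannot be told apart from those of Snx22. In all, 12 of the 35 genes share exon bases with another annotated gene, and 7 of them more than 100 bases, which are Derl2, Eif2ak3, Hsp90b1, Manf, Ppib, Sec61a1 and Txndc5.

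**Figure D3:**
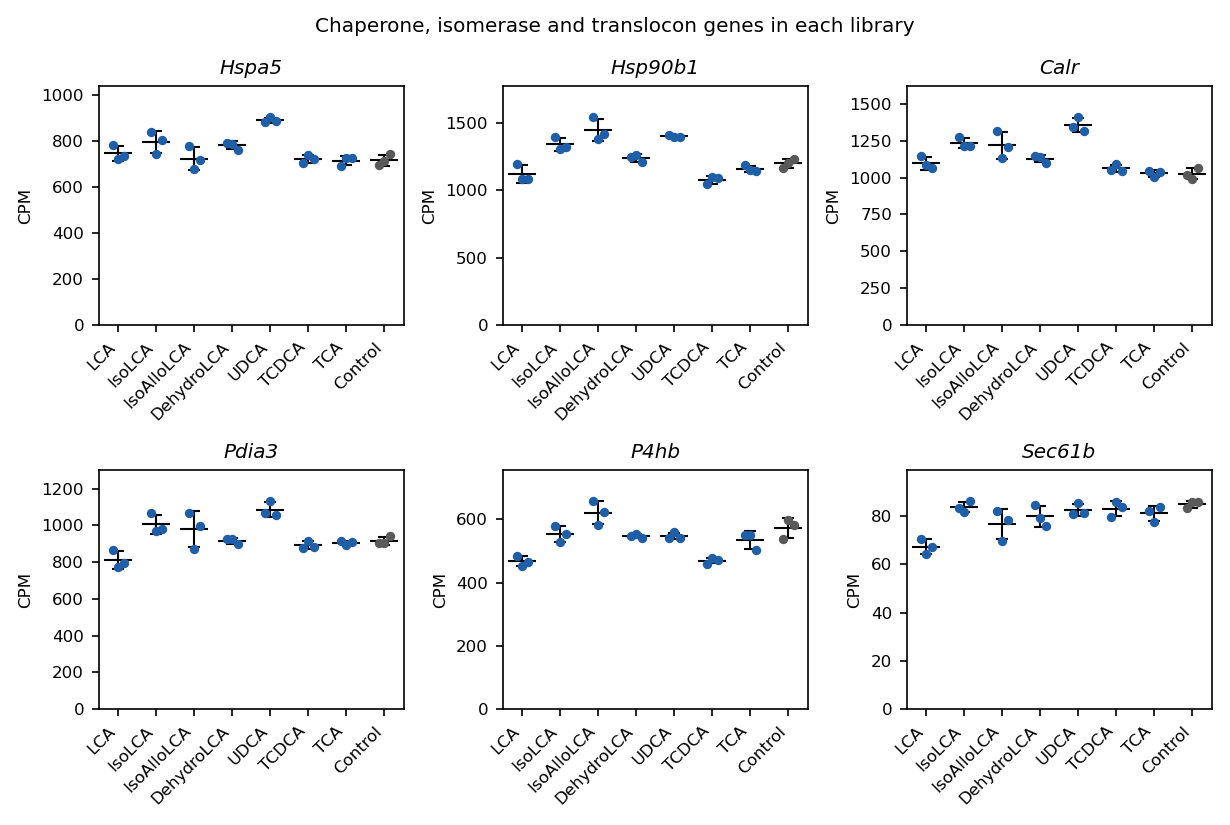
CPM of Hspa5, Hsp90b1, Calr, Pdia3, P4hb and Sec61b (vertical axes, linear, from 0) in each of the 24 libraries, by group (horizontal axis, Control at the right in grey); points are libraries, the long line is the mean of 3 and the bars are 1 SD. UDCA libraries stand above Control for the first 4 genes, and LCA libraries stand below Control for Pdia3, P4hb and Sec61b.

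Of the 7 degradation genes, 4 rose and 1 fell with IsoAlloLCA, while 2 rose with UDCA, 1 rose with LCA and 1 fell with TCDCA. Of all tested genes, 30.6% rose and 27.8% fell with IsoAlloLCA, 9.18% rose with UDCA, 17.7% rose with LCA and 8.04% fell with TCDCA. Herpud1 (chr8:94386500-94395358, plus strand) encodes a membrane scaffold of the degradation complex. It had 80.9, 80.7 and 73.1 CPM with IsoAlloLCA, against 91.9, 95.3 and 94.96 CPM in Control cells, and fell by 0.26 on the log2 scale with no overlap (SE 0.048, adjusted p = 3.97e-05, edgeR quasi-likelihood test). Its levels were 102, 99.1 and 104 CPM with LCA, 102, 102 and 102 CPM with DehydroLCA, 92.4, 88.6 and 103 CPM with IsoLCA, 87.1, 87.7 and 91.2 CPM with UDCA, 92.8, 93.4 and 96.2 CPM with TCDCA and 90.9, 99.1 and 101 CPM with TCA. None of these 6 groups was called, although LCA and DehydroLCA lay wholly above Control and UDCA wholly below it. Sel1l, the partner that stabilises the ubiquitin ligase Hrd1 (gene Syvn1), had 124, 134 and 124 CPM with LCA and 124, 127 and 126 CPM with IsoAlloLCA, against 110.2, 109 and 109.6 CPM in Control cells. It rose without overlap by 0.22 ± 0.034 with LCA (adjusted p = 1.73e-05) and 0.20 ± 0.034 with IsoAlloLCA (2.19e-05; log2, SE, edgeR). With UDCA the call of 0.10 ± 0.034 on Sel1l was lost with DESeq2 and whenever any 1 of the 6 libraries was left out. It was also lost with another scaling, with no filter and when only the 2 groups were fitted.

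With IsoAlloLCA the mannosidase-like lectin Edem1, which marks glycoproteins for degradation, averaged 315 ± 3.10 CPM, against 273 ± 5.51 CPM in Control cells, and rose by 0.21 ± 0.028 on the log2 scale (SE; adjusted p = 6.39e-07, edgeR quasi-likelihood test). Syvn1 and the lectin Os9 rose with it, at 50.1 ± 2.03 and 179 ± 2.32 CPM with IsoAlloLCA, against 44.9 ± 0.549 and 161 ± 1.75 CPM in Control cells (SD, n = 3 each). Os9 was called lower with TCDCA (150.1 ± 2.52 CPM), a call lost whenever any 1 of the 6 libraries was left out and with no filter. Derl1 and Derl2, Derlins in the membrane at the exit channel, moved little, while Derl3, not among the 35 genes, is described below. Derl2 averaged 56.3 ± 0.0462 CPM with UDCA, against 50.1 ± 2.13 CPM in Control cells, and rose there alone. Derl1 was the 1 gene of the 35 called with no acid, and its 24 libraries ran from 96.5 CPM in a TCDCA library to 109 CPM in a UDCA library.

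In the group that brings proteins into the endoplasmic reticulum, 3 of 4 genes fell with LCA and 1 rose and 2 fell with IsoAlloLCA. Of all tested genes, 18.8% fell with LCA, and 30.6% rose and 27.8% fell with IsoAlloLCA. With IsoLCA, DehydroLCA, UDCA, TCDCA and TCA 0 of the 4 were called in either direction by edgeR or by DESeq2, and 0 had an unadjusted p under 0.05. Sec61b (chr4:47474661-47483233, plus strand) encodes a small subunit of the Sec61 channel. It had 70.5, 64.3 and 67.0 CPM with LCA, against 83.3, 85.7 and 86.1 CPM in Control cells, and fell by 0.34 on the log2 scale with no overlap, the largest fall with LCA among the 35 genes (SE 0.051, adjusted p = 1.19e-05, edgeR quasi-likelihood test). Ssr1, a subunit of the translocon-associated protein complex, had 244, 236 and 240.5 CPM with LCA, against 269.7, 278 and 288 CPM in Control cells, and fell by 0.21 with no overlap (log2, SE 0.041, adjusted p = 0.000219, edgeR). Sec11c, a catalytic subunit of the signal peptidase, averaged 99.7 ± 3.01 CPM with IsoAlloLCA and 75.1 ± 4.13 CPM with LCA, against 84.6 ± 3.97 CPM in Control cells (SD, n = 3 each), a rise and a fall. Sec61a1, which encodes the channel itself, averaged 263 ± 16.6 CPM with IsoAlloLCA, against 299 ± 14.2 CPM in Control cells (SD, n = 3 each), and fell there alone. It shares 549 exon bases with the antisense gene Gm44170.

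The genes with the stress element printed above can be set beside those without it as a description. The copies were printed because of the UDCA count, so that count is not support for a link. With UDCA, 7 of the 8 genes with the element rose (median log2 fold change 0.26) and 7 of the 20 with a window but no element did (median 0.093). With IsoLCA the counts were 5 of 8 (median 0.16) and 1 of 20 (median 0.013). With IsoAlloLCA 4 of the 8 rose and 2 fell (median 0.075), and 8 of the 20 rose and 5 fell (median 0.065). Of all tested genes, 9.18% rose with UDCA and 3.73% with IsoLCA, and 30.6% rose and 27.8% fell with IsoAlloLCA. With LCA 0 of the 8 rose and 1 fell, and 1 of the 20 rose and 6 fell, beside 17.7% and 18.8%. With TCDCA 0 of the 8 rose and 1 fell, and 0 of the 20 rose and 2 fell, beside 5.08% and 8.04%. With DehydroLCA and TCA 0 of the 8 and 0 of the 20 were called. Syvn1 was the 1 gene with the element that was not called with UDCA.

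The acids given at the same dose were also compared with each other directly, in 6 pairs, on the same fit. The 5 pairs at 50 µM share the LCA, IsoLCA or IsoAlloLCA libraries and are not independent. UDCA differs from LCA by 1 added ring hydroxyl. With UDCA, 24 of the 35 genes were higher and 4 lower than with LCA, where 14.8% and 12% of all tested genes were (median log2 difference 0.20, beside -0.0096). All 8 isomerases, both lectin chaperones, all 4 translocation genes and 8 of the 10 chaperones were higher with UDCA. Pdia3 differed most, at 1066, 1133 and 1058 CPM with UDCA and 865, 772 and 793 CPM with LCA, a log2 difference of 0.42 ± 0.053 (adjusted p = 1.59e-06, edgeR quasi-likelihood test). Pdia6 followed at 336 ± 15.8 CPM with UDCA and 257 ± 9.80 CPM with LCA (0.39 ± 0.05, adjusted p = 2.50e-06, edgeR), and Hsp90b1 at 1401 ± 9.14 CPM with UDCA and 1121 ± 65.7 CPM with LCA (0.32 ± 0.042, adjusted p = 3.03e-06, edgeR). None of these 3 genes overlapped between the acids.

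Of the sensors and factors, Atf6 and Ern1 ran the other way in this pair. Atf6 was lower with UDCA than with LCA (-0.21 ± 0.038, 95% interval -0.29 to -0.14, adjusted p = 0.000128, edgeR quasi-likelihood test), and Herpud1 averaged 88.7 ± 2.18 CPM with UDCA and 102 ± 2.36 CPM with LCA (-0.20 ± 0.047, adjusted p = 0.00289, edgeR). Ern1 was also lower with UDCA (-0.35 ± 0.12, adjusted p = 0.0342, edgeR), a call lost without LCA replicate 2 or 3 or any UDCA library, and Sel1l likewise (-0.12 ± 0.034), a call lost without LCA replicate 2. The other 7 genes were not called, and the interval of the log2 difference was -0.0097 to 0.23 for Xbp1, -0.22 to 0.16 for Dnajb9 and -0.041 to 0.13 for Hyou1.

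**Figure D4:**
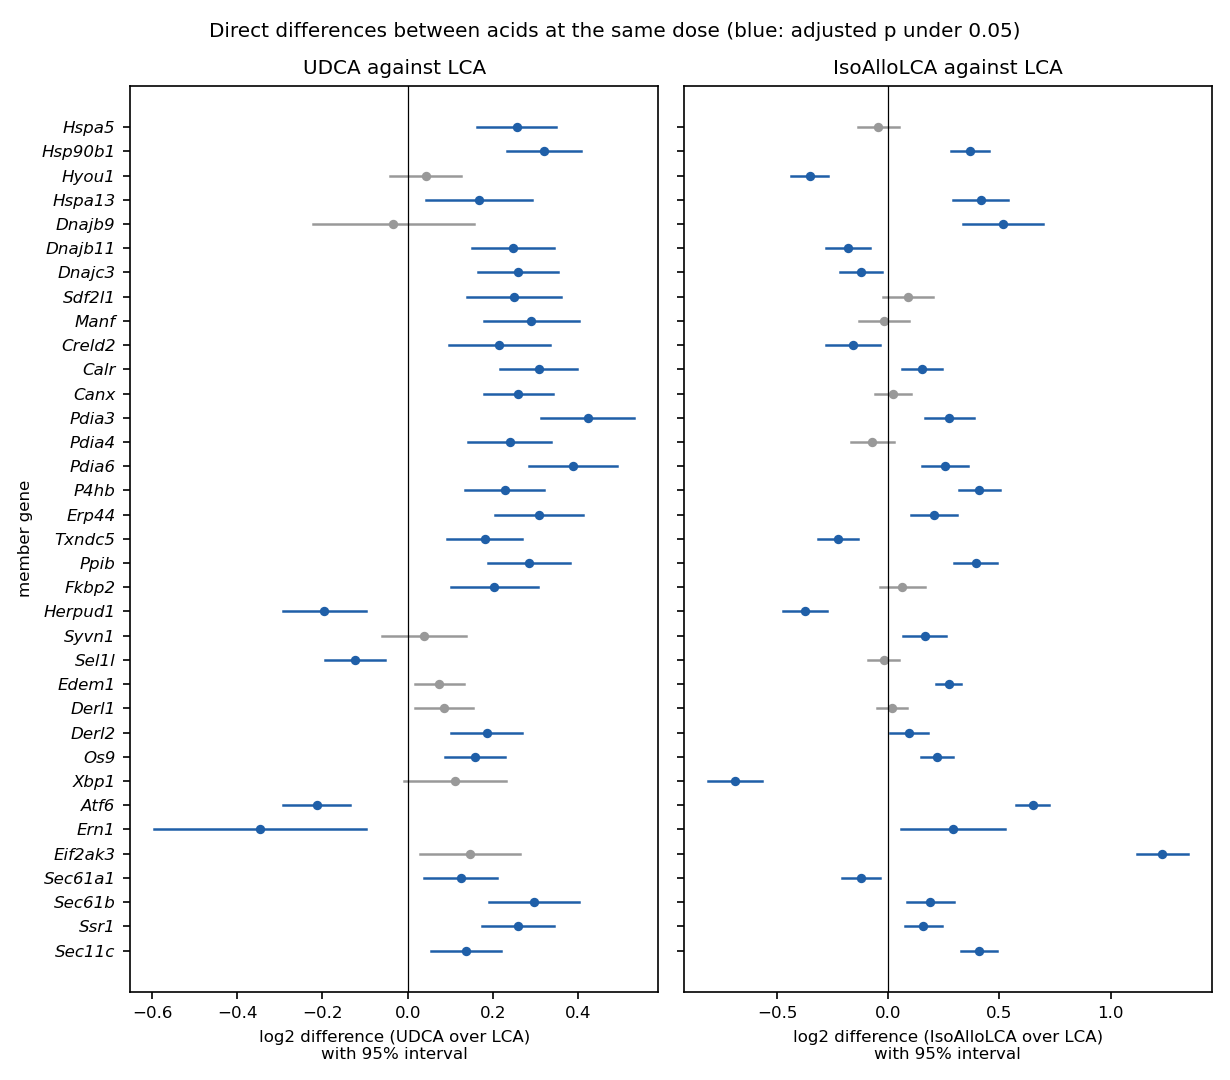
Log2 difference of each of the 35 genes (down the page) between UDCA and LCA (left) and between IsoAlloLCA and LCA (right), both at 50 µM, with 95% intervals on linear axes of different width; blue marks an adjusted p under 0.05 and grey the rest. Among the blue genes, UDCA is higher than LCA (to the right) for 24 and lower (to the left) for 4. IsoAlloLCA differs most at Eif2ak3 (1.23) and Xbp1 (-0.69).

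IsoLCA differs from LCA only in the orientation of the ring hydroxyl, and 16 of the 35 genes were higher and 3 lower with IsoLCA than with LCA, beside 15.8% and 14.6% of all tested genes (median 0.10, beside -0.0077). Sdf2l1 had 131, 119 and 127 CPM with IsoLCA and 105, 94.98 and 97.6 CPM with LCA, a log2 difference of 0.34 ± 0.053 (adjusted p = 3.82e-05, edgeR quasi-likelihood test). Pdia6 differed by 0.33 ± 0.05 (adjusted p = 2.58e-05) and Sec61b, at 83.5, 81.9 and 86.2 CPM with IsoLCA and 70.5, 64.3 and 67.0 CPM with LCA, by 0.32 ± 0.051 (adjusted p = 4.65e-05, edgeR). Ern1 was lower with IsoLCA by -0.44 ± 0.12 (adjusted p = 0.00705), Sel1l by -0.13 ± 0.034 (0.00586) and Xbp1 by -0.16 ± 0.058 (0.0451, edgeR, signed log2 differences). The call of Xbp1 was lost with another scaling, when only the 2 groups were fitted and without LCA replicate 1 or 3 or IsoLCA replicate 2. That of Sel1l was lost without LCA replicate 2. The sensors Atf6 (0.10) and Eif2ak3 (0.16) were called higher with IsoLCA, calls lost in 6 and 5 of 12 alternatives. Hspa5 was not called in this pair, with a log2 difference of 0.095 and an interval of 0.0016 to 0.19.

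IsoAlloLCA differs from IsoLCA in the orientation of a hydrogen where the first rings of the steroid join, and here 13 genes were higher and 14 lower with IsoAlloLCA, beside 31.7% and 28.1% of all tested genes (median -0.027, beside 0.029). The sensors were higher and most chaperones lower. Eif2ak3 averaged 136 ± 6.28 CPM with IsoAlloLCA and 65.0 ± 4.46 CPM with IsoLCA (1.07 ± 0.055, adjusted p = 3.86e-14), and Ern1 and Atf6 differed by 0.73 ± 0.12 (8.88e-06) and 0.54 ± 0.037 (5.51e-12, edgeR quasi-likelihood test, log2, SE). Xbp1 averaged 165 ± 15.9 CPM with IsoAlloLCA and 239 ± 19.2 CPM with IsoLCA (-0.54 ± 0.059, adjusted p = 2.64e-08, edgeR). Txndc5 and Dnajb11 followed at -0.32 ± 0.043 (7.19e-07) and -0.29 ± 0.047 (1.09e-05, edgeR). All 10 chaperones and co-chaperones were called in this pair, 3 higher and 7 lower with IsoAlloLCA, while DESeq2 called 2 higher and 7 lower. The call of Hsp90b1 (0.11 on the log2 scale) was lost in 8 of 12 alternatives, DESeq2 and its size factors among them, and that of Hspa5 without IsoLCA replicate 1, without IsoAlloLCA replicate 2 and when only the 2 groups were fitted.

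IsoAlloLCA and LCA differ at both of these places, and 19 genes were higher and 8 lower with IsoAlloLCA, beside 32.3% and 29.1% of all tested genes (median 0.15, beside 0.016). Eif2ak3 averaged 136 ± 6.28 CPM with IsoAlloLCA and 58.0 ± 1.149 CPM with LCA (1.23 ± 0.056, adjusted p = 2.39e-15, edgeR quasi-likelihood test). Atf6 differed by 0.65 ± 0.037 (adjusted p = 1.42e-13) and Dnajb9 by 0.52 ± 0.087 (1.41e-05, edgeR, log2, SE). Xbp1 differed by -0.69 ± 0.059 (2.16e-10), Herpud1 by -0.38 ± 0.047 (1.88e-07) and Hyou1 by -0.35 ± 0.041 (4.02e-08, edgeR). Hspa5 was not called, with an interval of -0.14 to 0.048, and neither was Canx, with an interval of -0.06 to 0.10.

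DehydroLCA carries a ketone in place of the ring hydroxyl of LCA. With DehydroLCA 10 genes were higher and 1 lower than with LCA, beside 10.3% and 7.49% of all tested genes (median 0.085, beside -0.00021). Sec61b had 84.6, 79.4 and 75.9 CPM with DehydroLCA and 70.5, 64.3 and 67.0 CPM with LCA (0.25 ± 0.051, adjusted p = 0.00132, edgeR quasi-likelihood test). P4hb had 548, 554 and 542 CPM with DehydroLCA and 486, 454 and 464 CPM with LCA (0.23 ± 0.045, adjusted p = 0.000934), and Sdf2l1 differed by 0.22 ± 0.053 (0.00529, edgeR, log2, SE). Sel1l was the 1 gene lower with DehydroLCA (-0.14 ± 0.034, adjusted p = 0.00449, edgeR). The count of 11 was 3 without LCA replicate 2, 7 without LCA replicate 3, 6 without DehydroLCA replicate 1, 4 without DehydroLCA replicate 2 and 17 when only the 2 groups were fitted.

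TCA carries 1 ring hydroxyl more than TCDCA, both at 100 µM. With TCA, 1 gene was higher and 0 lower than with TCDCA, beside 2.65% and 0.958% of all tested genes, DESeq2 gave the same counts, and 4 were higher and 1 lower at an unadjusted p under 0.05 in edgeR. The gene was P4hb, at 551, 549 and 504 CPM with TCA and 460.3, 478 and 469.8 CPM with TCDCA (0.19 ± 0.045, adjusted p = 0.0163, edgeR quasi-likelihood test). That call was lost without TCA replicate 1 or 2 or TCDCA replicate 1 or 3, and without TCA replicate 3 the count was 2. For the other 34 genes the log2 differences lay between -0.14 and 0.12.

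Beyond the 35 genes, 63 other genes of the pathway were listed, and all 63 were tested. With LCA, 11 rose and 25 fell (median -0.082), beside 17.7% and 18.8% of all tested genes. With IsoAlloLCA 23 rose and 18 fell (median 0.022), beside 30.6% and 27.8%, and with UDCA 10 rose and 9 fell (median 0.0094), beside 9.18% and 10.7%. With IsoLCA the counts were 2 and 5, beside 3.73% and 6.12%, with DehydroLCA 4 and 4, beside 2.41% and 3.41%, with TCDCA 2 and 6, beside 5.08% and 8.04%, and with TCA 1 fell, beside 0.353%. Beside Sec61b and Ssr1, 8 of 14 other translocon and signal peptidase genes fell and 1 rose with LCA, and 4 of the 7 oligosaccharyltransferase genes fell. Against LCA, 12 of those 14 genes were higher and 1 lower with UDCA, and all 7 oligosaccharyltransferase genes were higher. Of all tested genes, 14.8% were higher and 12% lower with UDCA than with LCA. Sec61g, the third subunit of the Sec61 channel, averaged 56.9 ± 1.14 CPM with UDCA and 40.1 ± 2.87 CPM with LCA (0.50 ± 0.056, adjusted p = 2.36e-07, edgeR quasi-likelihood test; SD, n = 3 each).

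The 6 listed outputs of the PERK arm are a group that other stresses acting on eIF2α also move. With UDCA all 6 fell (median log2 fold change -0.62), where 10.7% of all tested genes fell. With LCA 4 of the 6 rose and 0 fell (median 0.32), where 17.7% and 18.8% of all tested genes did, with 0 lower at an unadjusted p under 0.05 in edgeR and 0 lower in DESeq2. With IsoAlloLCA, where Eif2ak3 itself rose, 3 of the 6 rose and 3 fell, beside 30.6% and 27.8% of all tested genes. Atf3, a transcription factor of this arm, averaged 14.9 ± 0.0801 CPM with UDCA and 45.4 ± 5.03 CPM with IsoAlloLCA, against 27.2 ± 4.66 CPM in Control cells (SD, n = 3 each). Trib3, a pseudokinase, averaged 125 ± 8.93 CPM with LCA and 44.0 ± 1.30 CPM with UDCA, against 70.1 ± 5.12 CPM in Control cells. Chac1, which degrades glutathione, averaged 14.7 ± 0.0641 CPM with LCA and 4.87 ± 0.224 CPM with IsoAlloLCA, against 9.38 ± 1.18 CPM in Control cells.

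Among the other listed genes, Derl3, a Derlin of low level, averaged 2.29 ± 0.301 CPM with IsoAlloLCA, against 0.458 ± 0.0411 CPM in Control cells (2.32 ± 0.23, adjusted p = 5.86e-09, edgeR quasi-likelihood test). Ero1l encodes the oxidase that recharges protein disulfide isomerase and is also a target of hypoxia signalling. It was called lower by edgeR with all 7 acids, each set against the same 3 Control libraries. It averaged 139.7 ± 7.58 CPM with TCDCA, 143 ± 6.36 CPM with LCA, 146 ± 11.1 CPM with UDCA, 164 ± 10.95 CPM with IsoLCA, 182 ± 30.0 CPM with TCA, 189 ± 6.58 CPM with DehydroLCA and 213 ± 6.67 CPM with IsoAlloLCA, against 246 ± 32.2 CPM in Control cells (SD, n = 3 each). The log2 fold change with UDCA was -0.76 ± 0.087 (SE; adjusted p = 7.07e-07, edgeR quasi-likelihood test), and with IsoAlloLCA, whose libraries overlapped Control, -0.20 ± 0.085 (adjusted p = 0.0435, edgeR). DESeq2 did not call Ero1l with IsoAlloLCA (adjusted p = 0.0516, DESeq2). With TCA Ero1l was the 1 listed gene that fell (-0.43 ± 0.086, adjusted p = 0.0186, edgeR). The isomerase Pdia5 averaged 6.86 ± 0.548 CPM with UDCA, against 4.07 ± 0.177 CPM in Control cells, and rose by 0.75 ± 0.10 (adjusted p = 6.31e-06, edgeR), more than any of the 35 genes did with UDCA.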

How the data were processed

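RNA from 24 libraries of in vitro activated mouse CD8+ T cells was sequenced after a library preparation for very small inputs, per the labels' protocols. The authors deposited 1 table of expected counts per gene, in steps of 0.5 (29.43% of values are not whole), made with HOMER over exons on mm10 without normalisation or a strand option, per the file headers. STAR, HOMER and DESeq2 are named without versions in the submitters' processing notes. Exon length in bases comes from the same table.

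Expected counts were rounded to whole counts, upward at 0.5, and fitted with edgeR 4.0.16 in R 4.3.3 (filterByExpr, TMM, 1 coefficient per group over all 24 libraries, glmQLFit and glmQLFTest). The design had assumed whole counts, and the same test was used. The adjusted p is Benjamini-Hochberg over the 13044 genes of a comparison, with a threshold of 0.05. The fit had 16 residual degrees of freedom, and variation between replicates was 4.41% (the common coefficient). SE is the absolute log2 fold change over the square root of the F statistic. Counts in exons were 75.6% to 84.7% of library totals, and replicates differed by more than sampling noise (chi-square per degree of freedom 2.78 to 18.4). The fit was tested on simulated data.

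The genes, lists and tests were chosen with earlier results of these data known. Values by library are given for Xbp1, Atf6, Ern1, Eif2ak3, Hspa5, Hsp90b1, Calr, Dnajb9, Herpud1 and Sdf2l1. They are also given for up to 3 called genes with the largest positive and 3 with the largest negative change in a comparison, without overlap and at 5 CPM or more in a group. Of the other pathway genes, up to 2 rises and 2 falls of a comparison are named. Alternatives were DESeq2 1.42.0, its size factors in edgeR, no filter, a replicate block, a fit of only the 2 groups, adjustment over genes and comparisons, and leaving out each library. Promoter letters were searched in Python 3.11.15. A listed marker gene, and the sum that held it, are not reported here.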

Additional observations from a re-analysis of the deposited data

Results flagged for a closer look

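In 8 cases an acid moved a gene one way against Control and another acid at the same dose moved it the other way, both called by edgeR's quasi-likelihood test, and the direct difference between the acids was called as well. Between IsoAlloLCA and LCA the log2 differences were -0.35 for Hyou1, 0.41 for P4hb, 0.39 for Ppib and 0.41 for Sec11c. The rise of P4hb with IsoAlloLCA against Control is lost with DESeq2, and Ppib shares most of its exon bases with Snx22. Between IsoAlloLCA and IsoLCA the log2 difference of Dnajc3 was -0.28. Between UDCA and LCA the log2 differences were 0.26 for Canx, 0.42 for Pdia3 and 0.31 for Erp44. Some calls against Control behind these cases were lost when certain single libraries were left out. Those were Hyou1, Canx and Pdia3 with LCA, Dnajc3 with IsoAlloLCA and with IsoLCA, and Erp44 with UDCA and with LCA.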

How the results depend on the processing

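Of 177 called values of the 35 genes over the 13 comparisons, 0 changed sign in any of their alternatives, and 123 kept their call in all of them. Calls were lost for 7 values with DESeq2 size factors in edgeR, 5 with DESeq2, 10 without a filter on low counts, 25 when only the 2 groups were fitted and 7 with adjustment over genes and comparisons. With DehydroLCA against Control the count of called genes was 1, but 2 with DESeq2, 2 with a replicate block, 2 with only the 2 groups and 4 with adjustment over genes and comparisons. DehydroLCA against LCA gave 11, but 17 with only the 2 groups, and TCA against TCDCA gave 1, but 3 with only the 2 groups and 3 with adjustment over genes and comparisons. The cause was not tested. With 1 library left out, the counts ran from 8 to 16 for LCA, 3 to 8 for IsoLCA, 22 to 26 for IsoAlloLCA, 1 to 3 for DehydroLCA, 12 to 16 for UDCA, 2 to 4 for TCDCA and 0 to 0 for TCA against Control. Between acids they ran from 14 to 19 for IsoLCA against LCA, 22 to 27 for IsoAlloLCA against LCA, 24 to 26 for IsoAlloLCA against IsoLCA, 3 to 12 for DehydroLCA against LCA, 23 to 28 for UDCA against LCA and 0 to 2 for TCA against TCDCA. Whether equal replicate numbers pair the libraries was not settled. In 0 of the 13 comparisons did all 3 same-numbered pairs correlate above 0.1 (range -0.33 to 0.40). In 2 of 13 every library was nearest its own number. Between LCA, IsoLCA and IsoAlloLCA every same-numbered correlation was positive (0.057 to 0.40). With the replicate block 0 of the 177 calls were lost, and the counts were 12 for LCA against Control and 30 for UDCA against LCA, beside 11 and 28 without it. Groups of 3 libraries limit the precision of small differences. Reads from overlapping genes on opposite strands cannot be told apart, and counts per gene do not show splicing of Xbp1.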
